A study of Mus musculus with 6 samples.

Results

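The 10 genes described here encode calcium-dependent membrane and galactoside-binding proteins of lymphocytes: the annexins Anxa1, Anxa2, Anxa5 and Anxa6, the giant scaffold protein Ahnak, the S100 proteins S100a4, S100a6, S100a10 and S100a11, and galectin-1 (Lgals1). They were chosen by name, with earlier results of these data known. Each was read by the brightest probe set whose platform annotation held that symbol alone. All 10 were on the array, among 19938 genes read by such a probe set, and all 10 were among the 9924 genes that reached the signal filter, which asked for the array median in at least 1 array. S100a4 reached it in 1 array only. The study asked which genes respond to loss of the transcription factor Runx3 in freshly isolated (resting) CD8+ T cells (CD8-TC) from spleen, with Affymetrix mouse Gene 1.0 ST arrays. There were 3 WT (Runx3 +/+) and 3 Runx3-/- arrays of untreated cells, 1 per biological replicate, all from male mice of the outbred ICR stock aged 6 weeks. Whether a replicate was 1 mouse or a pool is not stated, and the p-values below measure the spread between these replicates. Both genotypes went over anti-CD8 magnetic beads, but the Runx3-/- cells alone were also FACS sorted, to take out dendritic cells carrying CD8 and CD11c, so that the sort cannot be told apart from genotype (1 label field mentions FACS for every sample).

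The targeted gene did not check the labels. Runx3 stood at 7.09, 7.30 and 6.99 in WT and at 7.06, 7.17 and 7.64 in Runx3-/- arrays, a difference of 0.16 ± 0.16 (SE, n = 3 per group; limma adjusted p = 0.559). The sources used here do not say which part of the transcript its probe set covers, or whether the deletion removes that part. Arrays of the same label nevertheless resembled each other most, with r of at least 0.985 within and at most 0.971 between genotypes over the 9924 genes tested.

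Annexins bind negatively charged phospholipids of membranes when calcium is present. Many of them pair with an S100 protein, a small dimer with EF-hand calcium sites, and the annexin A2 and S100a10 tetramer also binds the tail of Ahnak beneath the plasma membrane. Galectin-1 is a secreted lectin that binds galactose-ending glycans on surface glycoproteins of T cells. In T cells several of these genes, though not all, are known to be low in naive cells and higher in effector, memory and regulatory cells. Most of the 10 are also abundant in macrophages, neutrophils and stroma.

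Because the compared groups differ in a RUNX factor, the RUNX hexamer TGTGGT and its variants TGTGGC (last base changed), TGCGGT (middle base changed) and TGCGGC (both changed) were searched on both strands of the 250 bases before the annotated start. RefSeq (GRCm38.p6) held such a window for 7 of the 10 genes, all but Anxa6, S100a10 and Lgals1, and 4 of the 7 had a match. Of all 32851 windows held there, 38% had at least 1 match, 8.92% had 2 or more and 0.259% had 4 or more. The 3 windows below are those of Anxa1 and Ahnak, the genes that fell in Runx3-/- cells, and of S100a6, which held the most matches. They are written 5′ to 3′ in the direction of the gene, with the hexamers of either strand in capitals.
Anxa1 (chr19:20390672-20390921, minus strand): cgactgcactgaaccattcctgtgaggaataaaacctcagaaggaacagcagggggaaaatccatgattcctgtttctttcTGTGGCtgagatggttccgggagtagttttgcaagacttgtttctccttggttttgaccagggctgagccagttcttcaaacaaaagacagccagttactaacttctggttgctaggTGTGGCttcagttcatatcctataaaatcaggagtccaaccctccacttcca
Ahnak (chr19:8989034-8989283, plus strand): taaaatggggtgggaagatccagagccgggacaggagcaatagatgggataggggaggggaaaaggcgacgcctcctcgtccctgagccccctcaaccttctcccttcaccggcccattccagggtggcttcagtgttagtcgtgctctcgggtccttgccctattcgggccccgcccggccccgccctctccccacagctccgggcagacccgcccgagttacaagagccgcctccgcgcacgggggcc
S100a6 (chr3:90612644-90612893, plus strand): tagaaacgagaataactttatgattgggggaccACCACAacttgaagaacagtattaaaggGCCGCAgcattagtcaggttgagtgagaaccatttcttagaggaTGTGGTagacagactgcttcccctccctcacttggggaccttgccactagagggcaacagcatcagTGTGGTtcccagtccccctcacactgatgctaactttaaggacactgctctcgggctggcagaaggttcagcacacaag
The Anxa1 window held TGTGGC at 169 and at 52 bases before the start, both in the forward direction. The Ahnak window held none. In S100a6 the hexamer TGTGGT lay at 217 bases (reverse strand), 145 and 79 bases before the start and TGCGGC at 189 bases (reverse strand), and no match overlapped another. Of the other windows, Anxa5 held TGCGGT at 160 bases, S100a4 held TGTGGC at 243 bases, and Anxa2 and S100a11 held none. A match is a run of letters and not a measured binding site. Sequence farther from the start was not searched, and the study found most Runx3-bound regions of resting CD8-TC far outside such windows. Neither a match nor its absence here therefore tells whether Runx3 binds the gene.

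Ahnak fell 1.76-fold and Anxa1 fell 2.02-fold in Runx3-/- CD8-TC, and the other 8 genes did not pass the test. The difference, Runx3-/- minus WT, was below 0 for all 10 genes, and for 48.9% of all genes, although that of Anxa6 turned positive under quantile normalization and that of S100a6 and S100a10 turned when certain single arrays were left out. The median over the 10 was -0.44 on the log2 scale, beside 0.0062 over all 9924 genes tested. The count and the median are descriptions only, since the 10 genes were chosen with earlier results of these data known. S100a4 passed the filter only through a WT array, the group where it was higher, and without it 9 of 9 were below 0 with a median of -0.45. In that test, limma with Benjamini-Hochberg adjustment over all genes, 2 of the 10 were called lower, beside 6.00% of all genes, and 0 were called higher, beside 5.63%. In either direction it was 2 of 10 beside 11.6%. A change of 1.5-fold with an unadjusted limma p under 0.05 was met by the same 2 genes, beside 8.07% of all genes in either direction and 4.95% lower. These are the study's thresholds for fold and p. Its p came from Partek, however, and its rule also asked for a signal above background, which was replaced here by the signal filter. The arrays of the genotypes did not overlap for 4 of the 10, all lower, compared with 33.6% of all genes in either direction and 16.2% lower.

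**Figure D1:**
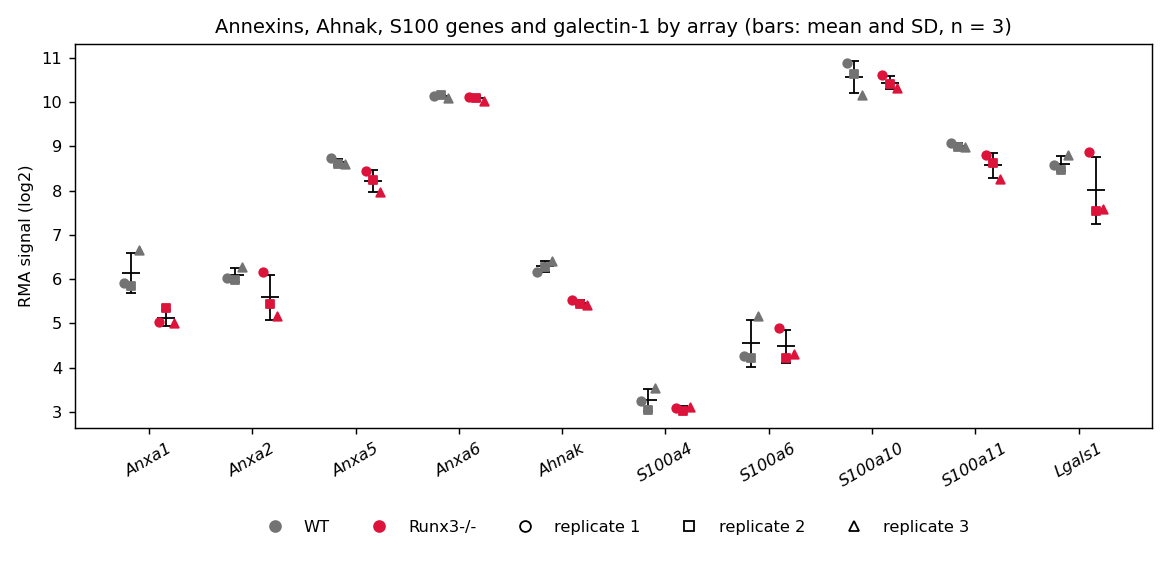
The vertical axis is log2 RMA signal and the horizontal axis names the 10 genes; grey points are WT arrays and red points Runx3-/- arrays, symbols mark the replicate, and bars give the mean and SD (n = 3). The genotypes lie apart for Anxa1, Anxa5, Ahnak and S100a11, whereas Lgals1 in Runx3-/- replicate 1 (8.88) lies above every WT array.

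Ahnak links annexin A2, actin and calcium channel subunits at the cell cortex and is needed for calcium entry after T cell receptor stimulation. Its signal stood at 6.17, 6.27 and 6.42 in WT and at 5.54, 5.44 and 5.43 in Runx3-/- arrays. The lowest WT array thus lay 0.63 above the highest Runx3-/- array, and the SD was 0.12 in WT and 0.061 in Runx3-/- cells. The difference was -0.82 ± 0.099 (SE, n = 3 per group; limma adjusted p = 0.00172), and it passed under all 16 alternative settings, with values from -0.88 to -0.75. The genes whose signals followed Ahnak most closely over the 6 arrays, by the root mean square difference of log2 values centred on each gene, were Dusp16 (0.025), Hip1r (0.036), Fbxo30 (0.076), Hpgds (0.094) and Tnfaip8 (0.094). Dusp16 lay below the array median in every Runx3-/- array and passed the filter only through WT arrays, the group where it was higher. Fbxo30 and Hpgds lay below the array median in Runx3-/- replicates 2 and 3.

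Annexin A1 is a glucocorticoid-induced protein that dampens inflammation through formyl peptide receptors and also acts in T cell activation. Its signal stood at 5.92, 5.84 and 6.66 in WT and at 5.03, 5.34 and 5.01 in Runx3-/- arrays. All 3 Runx3-/- arrays lay below all 3 WT arrays, with a gap of 0.50, and WT replicate 3 stood above the other WT arrays. Anxa1 fell by 1.01 ± 0.21 (SE; limma adjusted p = 0.0201). Over its alternatives the difference ran from -1.16 to -0.75 and the adjusted p from 0.0105 to 0.16. The call was lost without Runx3-/- replicate 1 (-0.96, adjusted p = 0.0577), without Runx3-/- replicate 3 (-0.95, 0.0774) and without moderation of variances across genes (-1.01, 0.16). In a further limma fit over all 35399 probe sets, Anxa1 did not pass either (adjusted p = 0.111), whereas Ahnak did (0.0116). None of the 3 formyl peptide receptor genes listed (Fpr1, Fpr2, Fpr3) was read by a probe set of its own.

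Annexin A2 and S100a10 form the tetramer that recruits plasminogen and its activator to the cell surface. Anxa2 stood at 6.03, 5.98 and 6.27 in WT and at 6.15, 5.44 and 5.18 in Runx3-/- arrays. Runx3-/- replicate 1 fell within the WT range, while the other Runx3-/- arrays lay below it. The difference was -0.50 ± 0.23 (SE; limma adjusted p = 0.192), and with single arrays left out it ran from -0.79 (without Runx3-/- replicate 1) to -0.30 (without Runx3-/- replicate 3). Its partner S100a10, which lacks working calcium sites, stood at 10.88, 10.63 and 10.17 in WT and at 10.60, 10.41 and 10.31 in Runx3-/- arrays. The genotypes overlapped, the difference was -0.12 ± 0.18, and its 95% interval ran from -0.52 to 0.28 (adjusted p = 0.711). Without WT replicate 1 the sign turned, to 0.044. Of the plasminogen genes listed, 2 were tested and 0 passed in limma (1 at an unadjusted p under 0.05), with 0.54 ± 0.15 for the plasminogen receptor Plgrkt (adjusted p = 0.0537) and -0.19 ± 0.13 for the urokinase receptor Plaur.

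Annexin A5, the phosphatidylserine-binding protein used to stain dying cells, stood at 8.73, 8.60 and 8.60 in WT and at 8.45, 8.23 and 7.97 in Runx3-/- arrays. S100a11, a dimer that binds annexin A1 and takes part in membrane repair, stood at 9.08, 8.98 and 8.99 in WT and at 8.81, 8.63 and 8.27 in Runx3-/- arrays. For these genes the genotypes did not overlap, by 0.15 for Anxa5 and 0.17 for S100a11, and in each the Runx3-/- arrays followed the same order, with replicate 3 lowest. The differences were -0.43 ± 0.13 (SE; limma adjusted p = 0.0713) for Anxa5 and -0.45 ± 0.14 (adjusted p = 0.0758) for S100a11. Both passed under quantile normalization, with an adjusted p of 0.0478 for Anxa5 and 0.0493 for S100a11. A dimmer probe set of S100a11, with the same annotated transcripts, gave -0.38. RefSeq also names a pseudogene, S100a11-ps, and whether either probe set reads it was not tested.

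Annexin A6, the largest annexin, acts in membrane trafficking and cholesterol transport. It stood at 10.14, 10.16 and 10.09 in WT and at 10.12, 10.10 and 10.03 in Runx3-/- arrays. The genotypes overlapped within a narrow range, and the difference was -0.045 ± 0.086 (SE; limma adjusted p = 0.774), with a 95% interval from -0.24 to 0.15. A dimmer Anxa6 probe set, annotated with 1 cDNA record only, pointed the other way. It stood at 4.77, 5.44 and 5.22 in WT and at 5.51, 5.87 and 5.88 in Runx3-/- arrays, a difference of 0.61 (adjusted p = 0.211 in a fit over all 35399 probe sets). When the probe sets were averaged, the Anxa6 difference was 0.28 (adjusted p = 0.145).

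S100a4 and S100a6 lie near each other in the S100 gene cluster, with S100a5 between them, and are often used as markers of effector and memory T cells. S100a4 stood at 3.26, 3.04 and 3.53 in WT and at 3.10, 3.03 and 3.12 in Runx3-/- arrays. These signals lay at or below the array medians of 3.45 to 3.53 in all but WT replicate 3, so that little of an S100a4 difference could be seen (-0.19 ± 0.13 SE; limma adjusted p = 0.372). S100a6 stood at 4.27, 4.22 and 5.16 in WT and at 4.90, 4.23 and 4.32 in Runx3-/- arrays. WT replicate 3 and Runx3-/- replicate 1 stood above the other arrays of their genotypes, the difference was -0.070 ± 0.27 (adjusted p = 0.895), and its sign turned without WT replicate 3 (0.24), without Runx3-/- replicate 2 (0.058) and without Runx3-/- replicate 3 (0.011).

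Galectin-1 stood at 8.57, 8.46 and 8.80 in WT and at 8.88, 7.55 and 7.59 in Runx3-/- arrays. Runx3-/- replicate 1 was the highest of the 6 arrays, whereas the other Runx3-/- arrays were the lowest and close to each other. The Lgals1 difference was -0.61 ± 0.32 (SE; limma adjusted p = 0.262), and the SD was 0.75 in Runx3-/- and 0.17 in WT arrays. Without Runx3-/- replicate 1 it was -1.04 and passed (adjusted p = 0.00461), while without Runx3-/- replicate 2 it was -0.38 (0.565) and without Runx3-/- replicate 3 it was -0.40 (0.529).

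The number of the 10 genes that passed moved with the arrays included, and also with the setting, from 1 without moderation of variances to 4 under quantile normalization. Runx3-/- replicate 1 was the highest Runx3-/- array for 8 of the 10 genes, all but Anxa1 and S100a4, and for 35.6% of all genes tested. Runx3-/- replicate 3 was the lowest for 7 of the 10 and for 48.2% of all genes. Without Runx3-/- replicate 1, 5 genes passed in limma, all lower, beside 4.52% of all genes called lower and 8.9% in either direction. They were Ahnak, Lgals1, Anxa2 (-0.79, adjusted p = 0.0169), Anxa5 (-0.54, 0.0367) and S100a11 (-0.57, 0.042). Without Runx3-/- replicate 3, 1 gene passed, Ahnak, beside 3.24% of all genes called lower. Among WT arrays, replicate 3 was the highest for 6 of the 10 genes and for 32.1% of all genes.

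**Figure D2:**
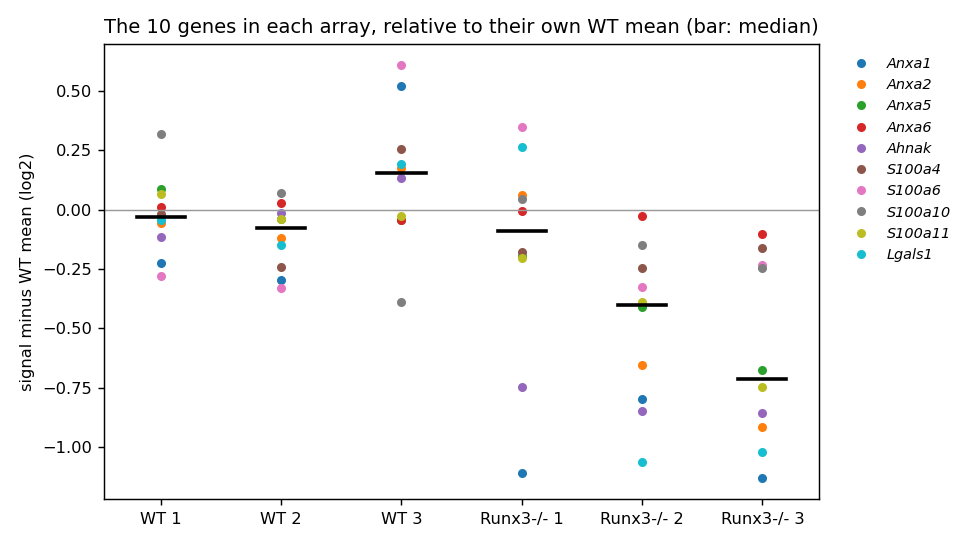
Signal of each of the 10 genes minus its own WT mean, on the log2 scale (vertical axis), in each array (horizontal axis), with a bar at the median of the 10. The median was -0.092, -0.40 and -0.71 in Runx3-/- replicates 1, 2 and 3, and Anxa1 and Ahnak lay lowest of the 10 in replicate 1.

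The other genes of these families were described as a background. Over all 9924 genes tested, 6.00% were called lower and 5.63% higher. Of 4 further annexins tested, 3 fell and Anxa11 did not pass (-0.18 ± 0.10 SE). Anxa3, a myeloid and neutrophil annexin, stood at 5.53, 4.79 and 5.69 in WT and at 3.93, 4.78 and 4.11 in Runx3-/- arrays, a fall of 1.06 ± 0.27 (limma adjusted p = 0.0424). Anxa4 stood at 5.19, 4.97 and 5.60 in WT and at 3.99, 4.74 and 4.15 in Runx3-/- arrays and fell by 0.96 ± 0.22 (adjusted p = 0.0275). Anxa7 fell by 0.50 ± 0.10 (adjusted p = 0.0164). Whereas Lgals1 and Anxa2 were highest in Runx3-/- replicate 1 among the Runx3-/- arrays, Anxa3 and Anxa4 were lowest there. Of 5 further S100 genes, counting the S100-binding protein gene S100pbp, S100a8 fell, by 0.58 ± 0.14 (adjusted p = 0.0324). S100a8 is the neutrophil calgranulin subunit, with a WT mean of 3.72 near the array median. Its dimer partner S100a9 gave -0.63 ± 0.23 (adjusted p = 0.112). Both lay below the array median in every Runx3-/- array and passed the filter only through WT arrays, the group where they were higher. Of 6 further galectins, Lgals4, a gut galectin, rose by 0.43 ± 0.095 (adjusted p = 0.0247) at a signal of 3.61 in WT and 4.05 in Runx3-/- cells, and the macrophage galectin Lgals3 gave -0.70 ± 0.20 (adjusted p = 0.0619). These 5 calls among 15 genes, beside 11.6% of all genes called in either direction, were not stable. Without WT replicate 1 or without Runx3-/- replicate 3, 0 of the 15 passed in limma (8 and 9 at an unadjusted p under 0.05), and without Runx3-/- replicate 1 it was 2. The share of all genes called also fell, to 6.28%, 6.29% and 8.90% in these 3 fits.

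**Figure D3:**
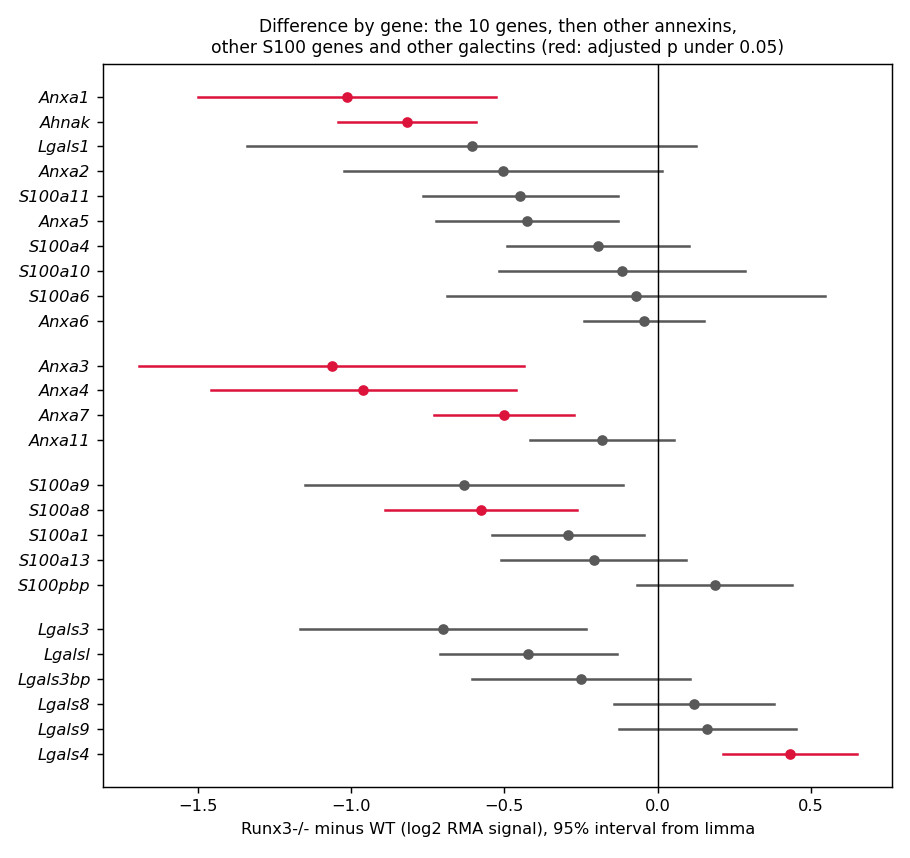
Difference Runx3-/- minus WT in log2 RMA signal (horizontal axis) for each of the 10 genes and for the other tested annexins, S100 genes and galectins (vertical axis), with limma 95% intervals from n = 3 arrays per genotype. Red marks genes past an adjusted p of 0.05, and among the 10 these are Anxa1 (-1.01) and Ahnak (-0.82).

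Genes that work with these proteins changed in both directions. Of 10 membrane repair and calpain genes, 2 fell and 2 rose, beside 6.00% of all genes called lower and 5.63% called higher. Myoferlin (Myof), a ferlin of membrane fusion and repair, fell by 0.90 ± 0.14 (SE; limma adjusted p = 0.00555) and the ALG-2 partner Pdcd6ip fell by 0.39 ± 0.11 (adjusted p = 0.0499). The calpain Capn2 rose by 0.45 ± 0.11 and the cytolinker Plec rose by 0.46 ± 0.11. Of 9 genes for galectin-1 ligands and the enzymes that shape their glycans, 3 fell and 0 rose. Cd7, a surface glycoprotein bound by galectin-1, stood at 9.26, 9.34 and 8.47 in WT and at 7.53, 7.49 and 6.65 in Runx3-/- arrays and fell by 1.80 ± 0.29 (adjusted p = 0.00654). The core 2 O-glycan enzyme Gcnt1 fell by 0.56 ± 0.11 (adjusted p = 0.0164) and the mannosidase Man2a1 fell by 0.42 ± 0.11 (adjusted p = 0.0393), whereas the ligands Ptprc (CD45) and Spn (CD43) gave 0.16 ± 0.093 and 0.25 ± 0.13 and did not pass. Gcnt1 lay below the array median in every Runx3-/- array and passed the filter only through WT arrays, the group where it was higher. Of 14 cytoskeletal and membrane genes of effector and memory T cells, 1 fell, the myosin Myo1f (-1.01 ± 0.16, adjusted p = 0.00697), beside the 6.00% of all genes called lower. Vim, Emp3 and Crip1, which usually accompany S100a4, S100a6 and Lgals1 in memory cells, gave -0.0057 ± 0.095, 0.041 ± 0.11 and -0.33 ± 0.13 and did not pass. The medians were -0.19, 0.071 and -0.14 for these 3 lists. Without Runx3-/- replicate 1 the calls among the 34 partner genes numbered 3 rather than 8, without Runx3-/- replicate 2 or 3 or WT replicate 1 they numbered 4, and without WT replicate 2 they numbered 5. Of all genes, 11.6% were called with every array. The share was 8.90% without Runx3-/- replicate 1, 6.37% and 6.29% without Runx3-/- replicates 2 and 3, and 6.28% and 7.88% without WT replicates 1 and 2.

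The purity of the samples was examined by marker lists, since a fall in such RNA cannot tell fewer cells of a type from less RNA per cell. The T cell markers Cd3e and Cd8a read between 9.22 and 11.17 in all arrays, and of 11 T cell markers 0 fell and 2 rose (Zap70 and Lat). Of 16 macrophage and monocyte markers 15 fell (Sirpa, Axl and C1qb with the lowest p), all 11 B cell markers fell, and 5 of 6 erythroid, 2 of 3 neutrophil (Lcn2, Ngp), 2 of 10 dendritic cell (Wdfy4, Ly75), 1 of 2 platelet (Ppbp) and 1 of 2 stromal markers (Sparc) fell. Over all genes tested, 6.00% were called lower and 5.63% higher. These counts cover markers that reached the signal filter, which were 3 of 10 neutrophil, 2 of 6 platelet and 2 of 10 stromal markers on the array. Lcn2, Ngp, Ppbp and Sparc, and some macrophage, B cell and erythroid markers, reached it only through WT arrays, where they were higher. Among regulatory T cell markers 8 of 10 rose, those with the lowest p being Cd4 (2.57 ± 0.12), Il2ra (2.23 ± 0.14) and Foxp3 (1.85 ± 0.13), and 1 platelet marker, Itgb3, rose. Il2ra and Foxp3 reached the filter only through Runx3-/- arrays, the group where they were higher. Cd4 is itself known to be silenced by RUNX factors in cells of the CD8 lineage. The summed linear signal of the macrophage list was 2868 to 2955 in WT and 358 to 599 in Runx3-/- arrays, that of the B cell list 1189 to 1853 and 218 to 288, that of the erythroid list 320 to 529 and 86.6 to 88.4, and that of the regulatory T cell list 330 to 357 and 792 to 906. The neutrophil list summed to 92.3 to 134 and 71.3 to 80.8 and the dendritic cell list to 982 to 1717 and 584 to 969. No marker is at 0 on this scale, but the sums include markers below the signal filter. A sum above 0 therefore does not by itself show that cells of that type were present. Whether macrophage, dendritic or other cells have a part in the falls of Ahnak, Anxa1, Anxa3 and Anxa4 was not tested.

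The lists also differed between arrays of 1 genotype, and the 10 genes did not all share 1 order there. Runx3-/- replicate 1 was nevertheless the highest Runx3-/- array for 8 of them, beside 35.6% of all genes. The macrophage median relative to WT was -2.79, -2.44 and -2.18 in Runx3-/- replicates 1, 2 and 3. The dendritic cell median was -0.77, -0.24 and -0.75 in these arrays and -0.27, -0.25 and 0.56 in WT replicates 1, 2 and 3, and the memory CD8 T cell median was 0.24, -0.044 and -0.16 in Runx3-/- and -0.16, -0.17 and 0.33 in WT arrays. Anxa1 was highest in WT replicate 3 and Runx3-/- replicate 2, as were Anxa3, Anxa4 and the dendritic cell list. Lgals1, Anxa2 and S100a6 were highest in WT replicate 3 and Runx3-/- replicate 1, as was the memory list. Ahnak also had its highest values in those arrays, whereas Anxa5, S100a10 and S100a11 were highest in WT replicate 1 and Runx3-/- replicate 1. Anxa6 was highest in WT replicate 2 and Runx3-/- replicate 1, and S100a4 in WT replicate 3 and Runx3-/- replicate 3. With 3 arrays per genotype these orders are descriptions only. Between genotypes, 3 of 13 memory genes fell (Klrd1, Nkg7 and Id2), beside 6.00% of all genes, with a median of 0.019. Of 10 naive T cell genes 3 rose (Igfbp4, Bach2 and Dapl1), beside 5.63% of all genes, with a median of 0.31. The part of the dendritic cell, memory and naive lists in the values of the 10 genes was not tested.

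**Figure D4:**
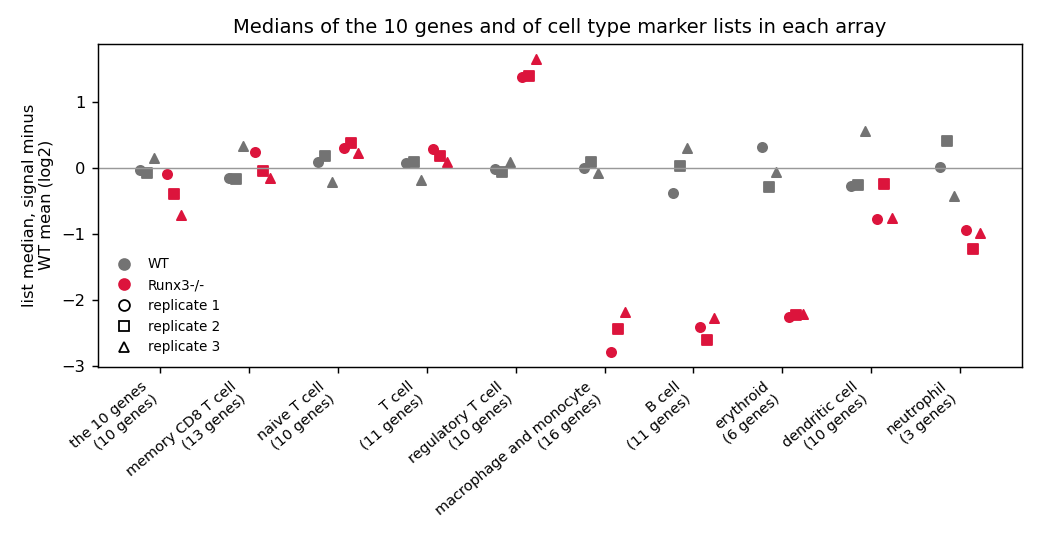
Median over the genes of each list of the log2 signal minus the gene's WT mean (vertical axis), for the 10 genes and for cell type marker lists (horizontal axis). Grey points are WT arrays, red points Runx3-/- arrays, and symbols mark the replicate. Macrophage, B cell and erythroid medians lie below -2 in every Runx3-/- array, whereas the memory CD8 T cell medians of the genotypes overlap.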

How the data were processed

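RNA of CD8-TC from 3 WT and 3 Runx3-/- biological replicates was hybridised to Affymetrix mouse Gene 1.0 ST arrays. The deposited values are log2 signals, which the authors obtained in Partek Genomics Suite by RMA with a GC correction, and Partek and RMA also stand in the submitters' processing notes. No version or genome build was found in these sources. RMA borrows strength across arrays and compresses low signals, so that small folds near the array median may be understated, and no detection call was used.

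GEO's platform annotation gave 21789 probe sets with 1 gene symbol and 1621 with several, which were not named. Symbols were checked by Entrez identifier against RefSeq (GRCm38.p6), which held 21698 of them. Each gene was read by its brightest single-gene probe set, and was tested when that was at or above the median of all probe sets on 1 or more of the 6 arrays. Differences were fitted with limma 3.58.1 in R 4.3.3 (lmFit and eBayes, no covariate, two-sided) over all 9924 genes, with Benjamini-Hochberg adjustment over all of them and a threshold of 0.05. The fit was tested on simulated data. Errors are SD over replicates or the SE from limma, and the number of arrays limits the precision.

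The 10 genes and the lists were chosen with earlier results of these data known. All 10 are given by array. Of the family and partner genes, every one past the threshold is named with its difference (or, with none, the 2 with the lowest p), some also by array, and up to 3 markers are named per list. A few further partners that did not pass were named after their values were seen. The alternatives were quantile normalization, centring, 3 other signal filters, averaged probe sets, 3 variance models, the replicate number as a block, and leaving out each array.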

Additional observations from a re-analysis of the deposited data

How the results depend on the processing

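Of 159 recomputed differences for the 10 genes, 142 kept their sign and their side of the threshold, 3 lost the call (all Anxa1), 7 gained it and 7 turned in sign. The sign of Anxa6 turned to 0.032 under quantile normalization and 0.28 with averaged probe sets, and that of S100a6 to 0.084 with array weights. With single arrays left out, S100a6 ran from -0.28 to 0.24 and S100a10 from -0.31 to 0.044. The number of the 10 genes called was 2, against 4 under quantile normalization, 1 without moderation of variances and 1 to 5 with single arrays left out. At the study's thresholds for fold and p, applied to the limma p, it was 2 to 4 with single arrays left out. The number of all genes called was 1154, against 178 without moderation and 623 to 924 with single arrays left out. Fewer arrays also lower the precision.

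Of the 15 other family genes 5 were called, against 3 without a signal filter, 0 without moderation (7 at an unadjusted p under 0.05) and 0 to 5 with single arrays left out. Of the 34 partner genes 8 were called, against 0 without moderation (10 at an unadjusted p under 0.05) and 3 to 7 with single arrays left out.

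The genotypes share replicate numbers in the titles, but nothing in the labels ties same-numbered animals together. The deviations of same-numbered arrays correlated at 0.18, 0.032 and -0.00014 across genes. With 3 arrays per genotype these values cannot decide whether the samples were paired, and the main fit did not pair them. With the replicate block, 2 of the 10 genes (Ahnak, adjusted p = 0.0124, and Anxa1, adjusted p = 0.0464), 1084 genes in all, 2 of the 15 family genes and 7 partner genes were called. Array 1 correlated best with its own number and arrays 2 and 3 with each other's.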
